A study of Ovis aries with 15 samples.

Results

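The kidney recovers filtered sugars, amino acids, peptides, phosphate and bicarbonate through membrane proteins of the solute carrier (SLC) superfamily, and 26 genes with such a name, or the chloride channel CFTR, were followed here in the kidney cortex of fetal sheep 24 h after a short period of hypoxia. The members were every gene that the array annotation names SLC followed by a number, without SLC2A1 and SLC2A3, and CFTR. They held 33 of the 15008 probes on the ovine array and 26 of its 899 named genes. Of these genes, 19 had 1 probe and 7 had 2. The label of solute carrier transporters covered 24 of the 26. CFTR is an ATP-gated chloride channel, and SLC9A3R1 (NHERF1) is a scaffold protein that binds transporters at the apical membrane and carries no solute itself. A further 16 carriers stand in the annotation under older names, among them the peptide transporter SLC15A1, listed as PEPT1. They do not meet the naming rule and are described separately.

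The study asked how the fetal kidney responds to hypoxia and whether ketamine, an anaesthetic and antagonist of NMDA receptors, alters that response. All 15 fetuses carried catheters and were studied at 125 ± 3 d of gestation (term 145 to 147 d). The ewe's ventilation was lowered to make 8 fetuses hypoxic for 30 min, and 7 stayed normoxic. Saline vehicle or ketamine at 3 mg/kg went to the fetus 10 min before the exposure. This gave 3 fetuses with normoxia and vehicle, 4 with normoxia and ketamine, 4 with hypoxia and vehicle and 4 with hypoxia and ketamine, each measured on 1 single-colour array of total RNA. The sources used here do not give breed or fetal sex.

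In the proximal tubule, sodium entering through SLC9A3 (NHE3) in exchange for protons drives bicarbonate reclamation at the apical membrane, and SLC4A4 (NBCe1) passes the bicarbonate with sodium to the blood side. Glucose and fructose leave through SLC2 facilitators, and SLC5 carriers take up sugars and monocarboxylates with sodium. Members of the SLC25 family sit mainly in the inner mitochondrial membrane, where they exchange ADP for ATP, import phosphate, metals, cofactors or fatty acylcarnitines, and feed the oxidative metabolism on which tubular transport depends.

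Levels are given as a percentage of each array's 75th percentile signal, so 100% is that reference signal. The reference was 1064 to 1425 intensity units over the arrays, and the scanner software called between 75.6% and 85.2% of probes well above background. The lowest signal so called was 0.544% to 0.968% of the reference on 14 arrays and 1.59% on replicate 4 of hypoxia with ketamine, and precision is limited by how many arrays there are. The arrays least like the others were replicate 4 of hypoxia with vehicle (median correlation 0.946) and replicate 2 of hypoxia with ketamine (0.965). The proximal tubule markers AQP1 and PCK1 were well above background on all 15 arrays, and none of the 5 thick limb and distal tubule markers sought was named on the array. In whole cortex, fewer cells of a type and less RNA per cell cannot be told apart.

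Probe sequences are shown for the genes on which the results turn, because a pair of probes for one gene can share most of their bases and is then not an independent measurement. All probes are 60 bases long and are written 5′ to 3′, with the bases shared by both probes of a pair in capitals. The 2 SLC9A3 probes share 33 bases and lie 27 bases apart on the transcript they were designed from. Those of SLC9A3R1 share 59 bases, and those of SLC7A8, an older-named amino acid exchanger described further on, share 53. SLC4A4 and SLC25A20 have 1 probe each.
SLC9A3 upstream probe: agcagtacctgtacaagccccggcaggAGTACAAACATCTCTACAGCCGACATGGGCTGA
SLC9A3 downstream probe: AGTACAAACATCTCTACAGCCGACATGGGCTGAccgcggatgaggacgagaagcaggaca
SLC9A3R1 first probe: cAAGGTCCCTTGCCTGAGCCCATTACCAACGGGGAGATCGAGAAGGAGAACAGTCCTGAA
SLC9A3R1 second probe: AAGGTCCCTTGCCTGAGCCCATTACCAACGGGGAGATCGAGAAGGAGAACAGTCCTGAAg
SLC7A8 first probe: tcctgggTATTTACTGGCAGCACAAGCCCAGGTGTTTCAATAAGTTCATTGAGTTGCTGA
SLC7A8 second probe: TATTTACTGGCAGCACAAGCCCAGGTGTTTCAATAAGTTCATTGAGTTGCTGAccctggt
SLC4A4 probe: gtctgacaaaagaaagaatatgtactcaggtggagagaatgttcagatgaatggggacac
SLC25A20 probe: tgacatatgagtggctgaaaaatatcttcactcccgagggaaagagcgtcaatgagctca

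Few of the 26 genes passed the study's threshold, an unadjusted p of 0.05 in limma, and in each hypoxia comparison under 1 treatment their share was near that of the whole array. Each gene was counted by its tested probe of highest mean signal. Passing, here and for each gene, refers to this unadjusted threshold, and the p-values printed are adjusted by Benjamini-Hochberg over all tested probes. In vehicle fetuses 3 genes passed between hypoxia and normoxia (11.5% of the 26), where 16.1% of all 12927 tested probes did (5.77% higher and 10.4% lower). SLC9A3 rose, and SLC4A4 and SLC9A3R1 fell. The median change over the 26 genes was 0.06 on the log2 scale, against -0.05 over all probes, with 14 genes above 0 and 12 below.

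In fetuses given ketamine, 2 genes (7.69%) passed between hypoxia and normoxia, against 8.67% of all probes (3.71% higher and 4.97% lower), and both of them, SLC4A4 and SLC9A3R1, fell. The median over the genes was -0.11, against -0.02 over all probes. Averaged over both pairs of groups, 3 genes passed, against 20.3% of all probes (7.81% higher and 12.5% lower). SLC4A4 and SLC9A3R1 were again lower, and SLC11A1 was higher. At a Benjamini-Hochberg adjusted p of 0.05 in limma, SLC4A4 and SLC9A3R1 passed in this averaged comparison, where 1.6% of all probes did. No member passed that adjusted threshold in the 5 other comparisons, in which at most 2 probes of the whole array passed (0.0155% for hypoxia in vehicle fetuses and 0% in the others), against 350 to 2086 probes at the unadjusted one.

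Ketamine against vehicle gave 1 member in hypoxic fetuses, against 6.07% of all probes (2.58% higher and 3.49% lower), and this was SLC9A3, which was lower with ketamine. In normoxic fetuses 2 members passed, against 2.71% of all probes (0.951% higher and 1.76% lower), and these were SLC25A20, which was higher with ketamine, and CFTR. The CFTR probe met the detection filter through 2 ketamine arrays of this comparison and 1 array outside it, with none from normoxia with vehicle, so its count here is not a measured difference. The medians over the 26 genes were 0.01 and 0.13, against 0.02 and -0.02 over all probes. The difference between the hypoxia effects with and without ketamine, the interaction, passed for SLC9A3 alone, against 3.15% of all probes (2.05% higher and 1.1% lower). These comparisons share groups of arrays, so their counts are not independent. Without replicate 4 of hypoxia with vehicle and replicate 2 of hypoxia with ketamine, the counts in the 6 comparisons were 5, 4, 4, 2, 2 and 2, in the order hypoxia in vehicle, in ketamine, averaged, ketamine in hypoxia, in normoxia and interaction, and SLC4A4, SLC9A3R1 and SLC9A3 kept their calls.

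**Figure D1:**
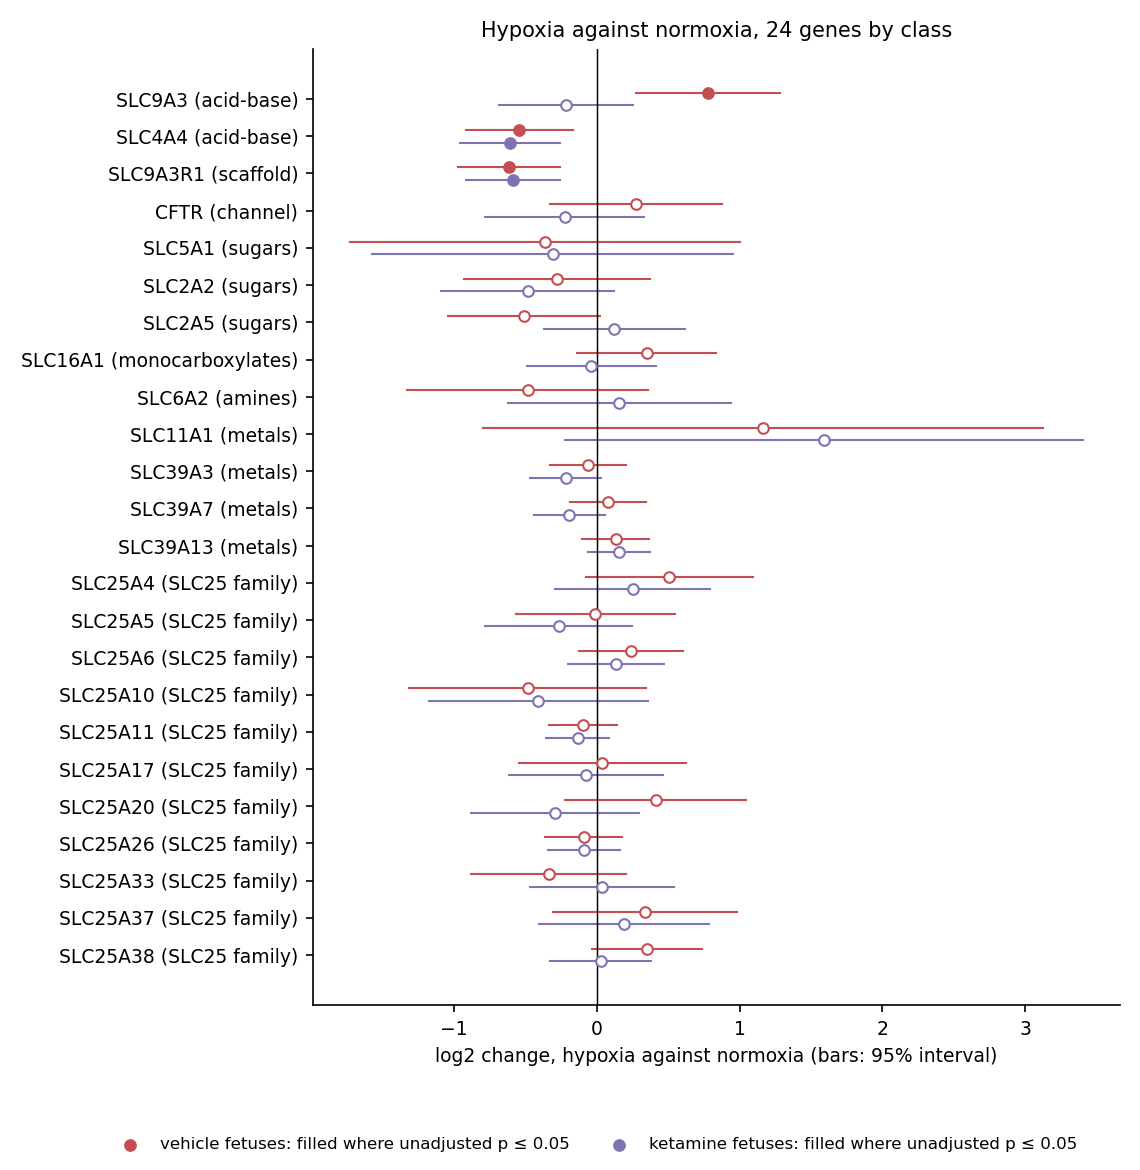
Log2 change from normoxia to hypoxia of 24 of the 26 genes, in vehicle fetuses and in ketamine fetuses, grouped by what the proteins carry. Points are fitted changes with 95% intervals and are filled where the unadjusted p was at most 0.05. SLC9A3R1 and SLC4A4 lie below 0 in both comparisons, SLC9A3 lies above 0 in vehicle fetuses, and SLC11A1 has the widest intervals.

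SLC9A3R1 fell after hypoxia, with or without ketamine. Its protein tethers NHE3 and the phosphate carrier NPT2a to the cytoskeleton of the brush border. The levels by its second probe were 111%, 141% and 127% in normoxia with vehicle and 119%, 117%, 112% and 101% in normoxia with ketamine. They were 88.0%, 102%, 71.0% and 71.0% in hypoxia with vehicle and 57.6%, 78.5%, 87.3% and 77.7% in hypoxia with ketamine. Within each treatment every hypoxic fetus lay below every normoxic one, and the level of 102% in 1 hypoxic vehicle fetus just exceeded the lowest normoxic ketamine level. The group means were 126% ± 15.0 (SD, n = 3), 112% ± 8.14 (n = 4), 83.1% ± 15.1 (n = 4) and 75.3% ± 12.5 (n = 4), in the same order.

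The arrays were scanned on 2 slides, each with arrays of all 4 groups. Slide 2 held 1 array of normoxia with vehicle and 2 of each other group. Changes within slide 2 that use normoxia with vehicle therefore rest on 1 fetus of that group. The changes are also given within each slide, marked where they did not pass the unadjusted threshold there. The log2 change of SLC9A3R1 in vehicle fetuses was -0.62 ± 0.17 (SE), a 1.53-fold lower level (limma adjusted p = 0.164), with -0.56 within slide 1 (not passed) and -0.68 within slide 2 (not passed). In ketamine fetuses it was -0.59 ± 0.15, or 1.5-fold lower (adjusted p = 0.285), with -0.60 and -0.58 (not passed) within the slides. Averaged over both, it was -0.60 ± 0.11 (adjusted p = 0.0241). The first probe, which shares all but 1 base with the second, gave an averaged change of -0.64 and an adjusted p of 0.0233. Within the slides the averaged change was -0.58 and -0.63. The effects of ketamine on SLC9A3R1 were -0.14 ± 0.15 in hypoxia (adjusted p = 0.884) and -0.17 ± 0.17 in normoxia (adjusted p = 0.9998), and the interaction was 0.03 ± 0.23.

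SLC4A4, the electrogenic sodium bicarbonate cotransporter of the basolateral membrane, was lower in all 8 hypoxic fetuses than in any of the 7 normoxic ones. Its levels were 5.59%, 7.8% and 7.03% in normoxia with vehicle and 5.86%, 6.60%, 7.89% and 5.74% in normoxia with ketamine. They were 5.49%, 4.10%, 4.96% and 4.11% in hypoxia with vehicle and 3.35%, 4.53%, 4.97% and 4.29% in hypoxia with ketamine. The gap was narrow, between 5.49% in the highest hypoxic fetus and 5.59% in the lowest normoxic one. The group means were 6.81% ± 1.12 (SD, n = 3), 6.52% ± 0.987 (n = 4), 4.67% ± 0.680 (n = 4) and 4.28% ± 0.684 (n = 4).

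The log2 change of SLC4A4 was -0.54 ± 0.17 in vehicle fetuses, or 1.46-fold lower (limma adjusted p = 0.185), with -0.69 within slide 1 and -0.43 within slide 2 (not passed). In ketamine fetuses it was -0.61 ± 0.16, or 1.53-fold lower (adjusted p = 0.286), with -0.50 (not passed) and -0.72 within the slides. The averaged change was -0.58 ± 0.12 (adjusted p = 0.0366), with -0.59 within slide 1 and -0.58 within slide 2. With a normexp background correction of the raw spot signals in place of the scanner software's own, the SLC4A4 changes were smaller and did not pass (-0.36, -0.05 and -0.21 in the 3 comparisons), whereas those of SLC9A3R1 passed (-0.60, -0.57 and -0.58).

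Markers of other cells also moved with hypoxia. Stromal COL3A1 fell by 0.57 in vehicle fetuses and by 0.49 in ketamine fetuses on the log2 scale, and DCN, the other stromal marker, did not pass (-0.17 and -0.16). The summed stromal level overlapped between all 4 groups, with 2836% to 3275% in normoxia with vehicle, 2610% to 4076% in normoxia with ketamine, 2331% to 3666% in hypoxia with vehicle and 2584% to 3678% in hypoxia with ketamine. Of 5 collecting duct markers, AQP3 rose in vehicle fetuses, by 0.73, and AQP2, SCNN1A, SCNN1B and SCNN1G did not pass. Their summed level was 241% to 320% in normoxia with vehicle, 235% to 344% in normoxia with ketamine, 342% to 530% in hypoxia with vehicle and 298% to 388% in hypoxia with ketamine. The podocyte marker WT1 and the endothelial marker PECAM1 did not pass in either hypoxia comparison. The macrophage markers CD14, CD86 and FCGR1A (3 of the 6 sought are named on the array) all rose in vehicle fetuses, and CD86 and FCGR1A also in ketamine fetuses. Their summed level was 32.4% to 43.2% in normoxia with vehicle, 39.4% to 47.4% in normoxia with ketamine, 71.1% to 147% in hypoxia with vehicle and 41.8% to 153% in hypoxia with ketamine. The proximal tubule markers AQP1 and PCK1 did not pass in either hypoxia comparison, and their summed level was 37.2% to 60.9% in normoxia with vehicle, 57.8% to 68.4% in normoxia with ketamine, 48.3% to 131% in hypoxia with vehicle and 38.3% to 87.4% in hypoxia with ketamine. The part of cell composition in the SLC9A3R1 and SLC4A4 changes was not tested.

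**Figure D2:**
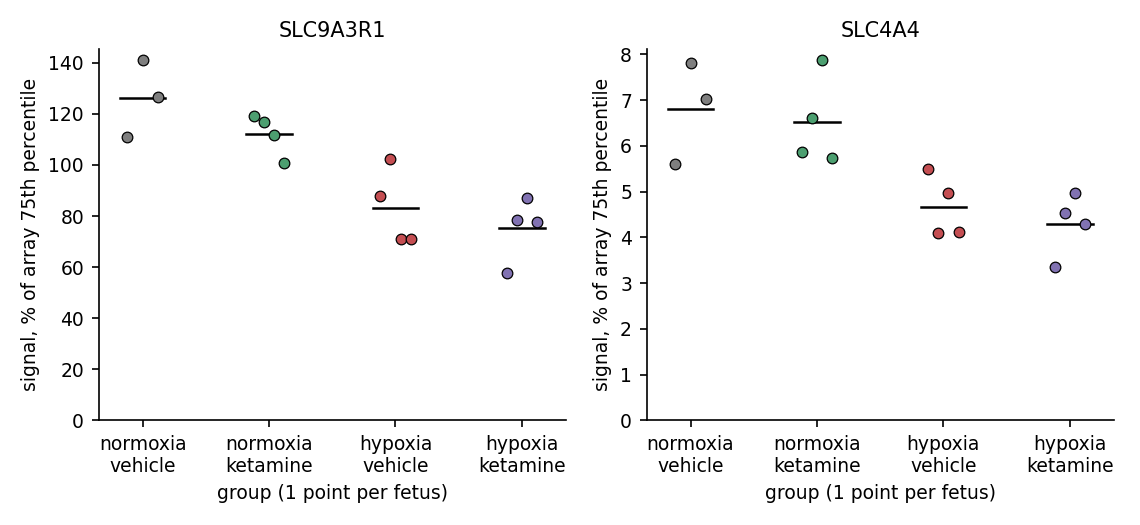
Level of SLC9A3R1 (second probe) and SLC4A4 in each fetus, as a percentage of the array's 75th percentile signal on a linear axis from 0, by group. Points are fetuses and bars are group means. For SLC4A4 all 8 hypoxic fetuses lie below all 7 normoxic ones, and for SLC9A3R1 the hypoxic fetuses lie lower within each treatment.

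SLC9A3, the apical sodium-proton exchanger NHE3, rose after hypoxia in vehicle fetuses by its upstream probe, and the downstream probe, which shares 33 of 60 bases, did not show this. By the upstream probe the levels were 1.23%, 1.62% and 1.32% in normoxia with vehicle and 1.85%, 1.78%, 1.37% and 1.82% in normoxia with ketamine. They were 2.18%, 2.04%, 3.68% and 1.93% in hypoxia with vehicle and 1.42%, 2.06%, 1.18% and 1.29% in hypoxia with ketamine. All 4 hypoxic vehicle fetuses exceeded all 3 normoxic vehicle fetuses, and 1 hypoxic ketamine fetus reached into their range. The probe was well above background on 14 of the 15 arrays. The exception was replicate 4 of hypoxia with ketamine, at 1.29% against that array's lowest such signal of 1.59%.

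The log2 change of SLC9A3 by the upstream probe was 0.78 ± 0.24 in vehicle fetuses, or 1.72-fold higher (limma adjusted p = 0.173), with 0.49 within slide 1 (not passed) and 1.1 within slide 2. In ketamine fetuses it was -0.22 ± 0.22 (adjusted p = 0.859). The interaction was -1.0 ± 0.32 (adjusted p = 0.989), with -0.64 within slide 1 (not passed) and -1.38 within slide 2. Ketamine against vehicle in hypoxic fetuses was -0.70 ± 0.22, or 1.63-fold lower (adjusted p = 0.800), with -0.28 within slide 1 (not passed) and -1.13 within slide 2. In normoxic fetuses it was 0.29 ± 0.24 (adjusted p = 0.9998). Leaving out any 1 array kept all 3 called SLC9A3 changes past the threshold, between 0.57 and 0.89, between -1.17 and -0.79 and between -0.87 and -0.49.

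By the downstream probe the SLC9A3 levels were 1.21%, 1.28% and 1.01% in normoxia with vehicle and 0.810%, 1.03%, 0.822% and 0.208% in normoxia with ketamine. They were 1.32%, 0.993%, 2.61% and 0.922% in hypoxia with vehicle and 1.43%, 1.11%, 0.351% and 1.28% in hypoxia with ketamine. The fetus that was highest by the upstream probe, replicate 3 of hypoxia with vehicle, was also highest here, but the other 3 of its group lay within the normoxic range or just beyond it. This probe was well above background on 6 arrays, none of them from normoxia with ketamine. Its changes were 0.20 ± 0.57 for hypoxia in vehicle fetuses (adjusted p = 0.893), -0.54 ± 0.53 for ketamine in hypoxic fetuses (adjusted p = 0.871) and 0.38 ± 0.78 for the interaction (adjusted p = 0.989). With the normexp correction the upstream probe gave 0.05, 0.10 and 0.28 for these 3 comparisons, so that the sign of the last 2 turned. With the median over both probes, SLC9A3 did not pass for hypoxia in vehicle fetuses (0.49), ketamine in hypoxia (-0.62) or the interaction (-0.31).

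**Figure D3:**
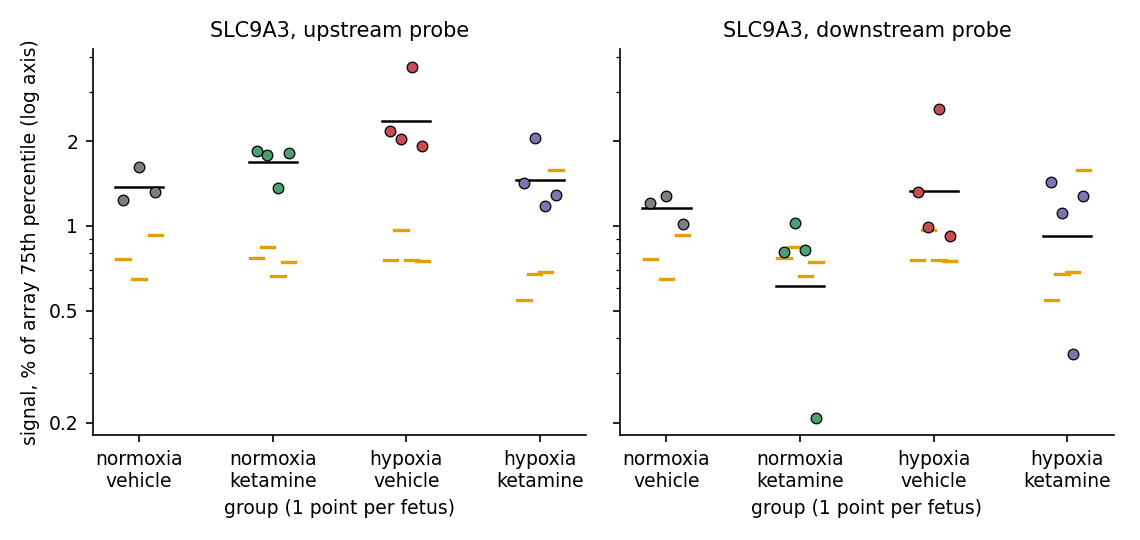
Level of SLC9A3 in each fetus by the upstream and the downstream probe, as a percentage of the array's 75th percentile signal on a log axis, by group. Points are fetuses, bars are geometric means, and dashes mark the lowest signal called well above background on that array. The hypoxic vehicle fetuses stand above the normoxic vehicle fetuses by the upstream probe, and the groups overlap by the downstream probe.

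CFTR, the cyclic AMP-regulated chloride channel mutated in cystic fibrosis, gave signals close to the background and 1 call. Its more abundant probe was well above background on 3 arrays, 2 from normoxia with ketamine and 1 from hypoxia with vehicle, and its other probe on 1 array, too few to be tested. The levels were 0.425%, 0.555% and 0.436% in normoxia with vehicle and 0.754%, 1.02%, 0.862% and 0.598% in normoxia with ketamine. They were 0.639%, 0.35%, 0.489% and 0.939% in hypoxia with vehicle and 0.637%, 0.551%, 0.786% and 0.762% in hypoxia with ketamine. By the more abundant probe all 4 normoxic ketamine fetuses lay above the 3 normoxic vehicle fetuses, none of which was well above background. The other probe gave the opposite order, with 0.521% to 1.66% in normoxia with vehicle and 0.210% to 0.316% in normoxia with ketamine. Its 1 array well above background was of normoxia with vehicle.

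The fitted CFTR change with ketamine in normoxia was 0.76 ± 0.28 (limma adjusted p = 0.9998), with 0.85 within slide 1 (not passed) and 0.72 within slide 2 (not passed). With no vehicle array and 2 of the 4 ketamine arrays well above background, these signals give no fold. Earlier results describe placental lactogen for 3 arrays, replicates 1 and 2 of normoxia with ketamine and replicate 2 of hypoxia with ketamine. All 3 are from fetuses given ketamine. The call was lost without the 3 arrays for which earlier results describe placental lactogen (0.62), without replicate 1 (0.69) or 3 (0.71) of normoxia with vehicle or replicate 2 of normoxia with ketamine (0.64), and with normexp the sign turned (-0.13). In the other comparisons CFTR had changes of 0.27 ± 0.28 with hypoxia in vehicle fetuses, -0.23 ± 0.26 with hypoxia in ketamine fetuses and 0.26 ± 0.26 with ketamine in hypoxia, and none of these passed.

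SLC25A20, the carnitine-acylcarnitine carrier that admits long-chain fatty acids to mitochondria for oxidation, was higher with ketamine in normoxic fetuses. Its levels were 13.2%, 10.2% and 19.3% in normoxia with vehicle and 21.8%, 32.7%, 29.6% and 20.3% in normoxia with ketamine. They were 20.8%, 29.4%, 13.3% and 13.8% in hypoxia with vehicle and 17.7%, 26.8%, 20.1% and 20% in hypoxia with ketamine. The normoxic ketamine fetuses lay above the normoxic vehicle fetuses without overlap, by a gap of 20.3% against 19.3% at its narrowest, and both hypoxic groups overlapped them.

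The log2 change of SLC25A20 with ketamine in normoxia was 0.90 ± 0.29, or 1.86-fold higher (limma adjusted p = 0.9998), with 1.2 within slide 1 and 0.34 within slide 2 (not passed). Without replicate 2 of normoxia with vehicle, its lowest fetus, the change was 0.68 and did not pass. It was 0.19 ± 0.27 with ketamine in hypoxia (adjusted p = 0.912), 0.41 ± 0.29 with hypoxia in vehicle fetuses (adjusted p = 0.502) and -0.29 ± 0.27 with hypoxia in ketamine fetuses (adjusted p = 0.844). The interaction of -0.71 ± 0.40 did not pass (adjusted p = 0.989).

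The other 11 SLC25 genes, among them the peroxisomal SLC25A17, did not pass in any of the 6 comparisons. Over all 12, hypoxia in vehicle fetuses gave changes between -0.49 and 0.51 with a median of 0.14, and hypoxia in ketamine fetuses between -0.41 and 0.25 with a median of -0.02. The adenine nucleotide translocases, which exchange ADP for ATP across the inner membrane, gave signals far above the reference. SLC25A6 (ANT3) ranged from 1622% in normoxia with vehicle to 3180% in hypoxia with ketamine. SLC25A4 (ANT1), the isoform of heart and muscle, ranged from 1108% to 1246% in normoxia with vehicle and from 1228% to 2311% in hypoxia with vehicle. Its hypoxia change in vehicle fetuses was 0.51 ± 0.27 (adjusted p = 0.371), and it passed when replicate 4 of hypoxia with vehicle was left out. SLC25A5 (ANT2) had a log2 change of -0.01 ± 0.26 there.

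SLC25A38, which brings glycine into mitochondria for haem synthesis, came nearest to the threshold of the SLC25 genes in this comparison, with a change of 0.35 ± 0.18 in vehicle fetuses (adjusted p = 0.345). The iron importer SLC25A37 (mitoferrin 1) had a log2 change of 0.34 ± 0.30 (adjusted p = 0.596), with replicate 4 of hypoxia with vehicle at 38.1% and the other fetuses between 11.1% and 20.4%. The dicarboxylate carrier SLC25A10 had a log2 change of -0.49 ± 0.38 (adjusted p = 0.549) and -0.41 ± 0.36 (adjusted p = 0.823), over levels of 3.43% to 17.7%. The 2-oxoglutarate carrier SLC25A11 varied little, from 43% to 59.5% over the 15 fetuses, and had a log2 change of -0.10 ± 0.11 and -0.13 ± 0.10. The pyrimidine nucleotide carrier SLC25A33, the S-adenosylmethionine carrier SLC25A26 and SLC25A17, a carrier of cofactors in the peroxisomal membrane, had changes between -0.34 and 0.04 in the hypoxia comparisons.

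The 3 sugar carriers had log2 changes of -0.51 to -0.28 with hypoxia in vehicle fetuses, and none passed by its counted probe. SLC2A5 (GLUT5), a fructose transporter, was at 872%, 603% and 829% in normoxia with vehicle and 725%, 487%, 486% and 764% in normoxia with ketamine. Its levels were 560%, 509%, 533% and 527% in hypoxia with vehicle and 411%, 638%, 878% and 803% in hypoxia with ketamine. The hypoxic vehicle fetuses were closely grouped below all 3 normoxic vehicle fetuses, while the ketamine groups were spread widely and overlapped.

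By the unadjusted threshold the brighter SLC2A5 probe did not pass and the other did, both for hypoxia in vehicle fetuses and for the interaction. With hypoxia in vehicle fetuses the brighter probe gave -0.51 ± 0.25 (adjusted p = 0.324) and the other, which shares 20 bases with it, -0.55 ± 0.23 (adjusted p = 0.277). For the interaction they gave 0.63 ± 0.34 (adjusted p = 0.989) and 0.73 ± 0.32 (adjusted p = 0.989). SLC2A5 passed as lower with hypoxia in vehicle fetuses under quantile scaling, normexp, a replicate block and the median over its probes. It also passed in the deposited table, in a fit of the 2 groups alone and on leaving out some single arrays. With slide as a block or the stricter filter on dim probes it did not pass. SLC2A2 (GLUT2), which releases glucose at the basolateral side of the early proximal tubule, ranged from 122% to 413% and had a log2 change of -0.28 ± 0.30 (adjusted p = 0.673) and -0.49 ± 0.28 (adjusted p = 0.695) in vehicle and ketamine fetuses. SLC5A1 (SGLT1), a sodium-glucose cotransporter, was dim at 0.705% to 5.13% and had a log2 change of -0.37 ± 0.63 and -0.31 ± 0.59.

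The lactate and pyruvate transporter SLC16A1 (MCT1) ranged from 69.1% to 153% by its brighter probe, with its highest value in replicate 3 of hypoxia with vehicle. It had a log2 change of 0.35 ± 0.23 in vehicle fetuses (adjusted p = 0.459) and -0.04 ± 0.21 in ketamine fetuses (adjusted p = 0.98). Its other probe, which shares no bases with the first, was well above background on 1 array and was not tested. The noradrenaline transporter SLC6A2, which clears the transmitter from sympathetic nerve endings, was at 0.607% to 2.17% and had a log2 change of -0.48 ± 0.39 (adjusted p = 0.559) and 0.16 ± 0.36 (adjusted p = 0.954).

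Of the 4 metal carriers, SLC11A1 (NRAMP1), a divalent metal transporter of phagosomes in macrophages and neutrophils, was higher after hypoxia in the averaged comparison and varied most of all members. The levels by its brighter probe were 5.07%, 4.31% and 8.42% in normoxia with vehicle and 8.82%, 3.37%, 5.25% and 10.9% in normoxia with ketamine. They were 6.98%, 22.8%, 57.6% and 2.88% in hypoxia with vehicle and 15.1%, 78.2%, 8.32% and 14.2% in hypoxia with ketamine. In each hypoxic group 1 fetus stood far above the rest, and the lowest of all 15 levels was also in a hypoxic fetus.

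The averaged SLC11A1 change was 1.38 ± 0.62 (limma adjusted p = 0.233), or 2.60-fold higher, with 1.70 within slide 1 (not passed) and 0.91 within slide 2 (not passed). With slide as a block it was 1.36 and did not pass, and without the 3 arrays for which earlier results describe placental lactogen it was 0.92 and did not pass. The second probe, which shares no bases with the first, gave 1.6 ± 0.63 and passed (adjusted p = 0.179). In vehicle and in ketamine fetuses alone the changes were 1.16 ± 0.91 (adjusted p = 0.543) and 1.59 ± 0.84 (adjusted p = 0.656), and neither passed. Leaving out 1 array ended the call for 8 of the 15, among them replicate 3 of hypoxia with vehicle (1.01), replicate 2 of hypoxia with ketamine (1.04), replicates 1 and 2 of normoxia with vehicle (1.34 and 1.28), replicates 2 and 3 of normoxia with ketamine (1.22 and 1.33), replicate 2 of hypoxia with vehicle (1.24) and replicate 1 of hypoxia with ketamine (1.44). Without replicate 4 of hypoxia with vehicle and replicate 2 of hypoxia with ketamine, the arrays least like the others, it was 1.40 and passed.

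The 2 fetuses with the highest SLC11A1 levels also had the highest macrophage and neutrophil markers. Among the others, the macrophage marker sum followed the order of SLC11A1 only in part. The summed level of CD14, CD86 and FCGR1A peaked at 147% and 153% in replicate 3 of hypoxia with vehicle and replicate 2 of hypoxia with ketamine. CATHL3, an antimicrobial peptide gene of neutrophil granules and the 1 neutrophil marker of 5 found on the array, was at 2900% and 2138% in the same fetuses. It was at 51.4% to 209% in normoxia with vehicle and 17.4% to 66.3% in normoxia with ketamine. Replicate 2 of hypoxia with vehicle and replicates 1 and 4 of hypoxia with ketamine came next in SLC11A1 (22.8%, 15.1% and 14.2%). Their macrophage marker sums had the same order (94.4%, 69.5% and 60.8%). Replicate 1 of hypoxia with vehicle lay outside it, with an SLC11A1 level of 6.98% and a sum of 71.1%. Replicate 4 of hypoxia with vehicle had the lowest SLC11A1 level of all, with a macrophage marker sum of 107%, the third highest. The next highest CATHL3 levels were 788% in replicate 4 of hypoxia with ketamine and 720% in replicate 2 of hypoxia with vehicle. SLC11A1 was at 14.2% and 22.8% in these fetuses. CATHL3 was at 48.4% and 86.6% in replicates 1 and 4 of hypoxia with vehicle. It was at 105% and 91.2% in replicates 1 and 3 of hypoxia with ketamine, and all 4 levels lay below the highest normoxic one. The part of these cells in the SLC11A1 signal was not tested.

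**Figure D4:**
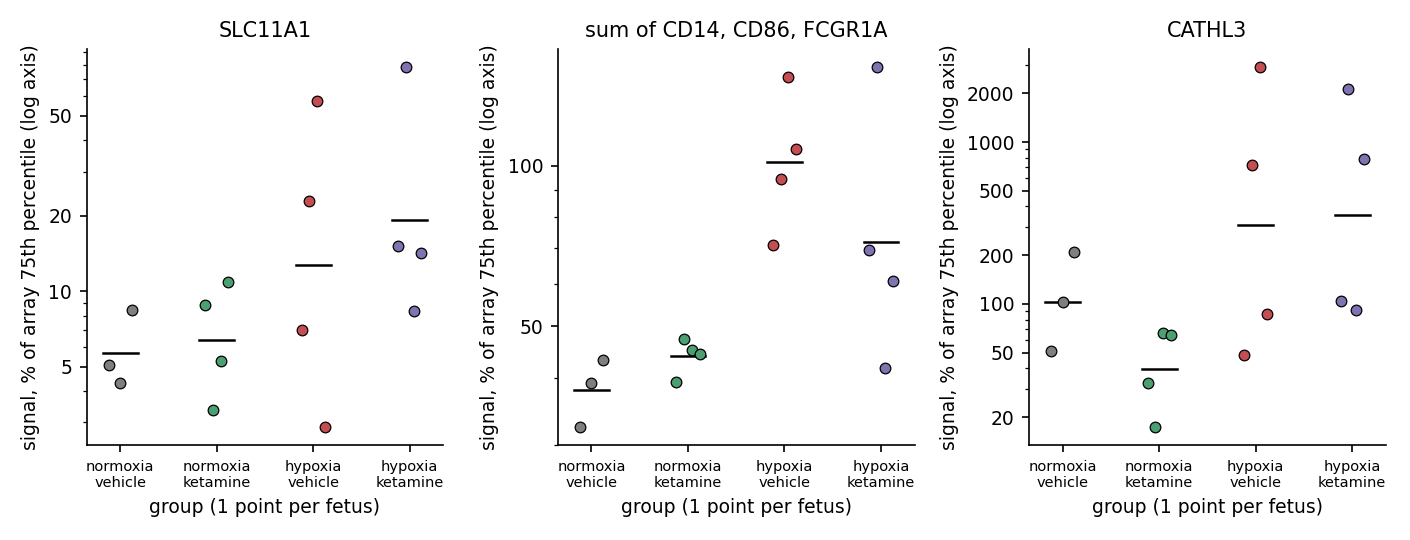
Level of SLC11A1, of the summed macrophage markers CD14, CD86 and FCGR1A, and of the neutrophil gene CATHL3 in each fetus, as a percentage of the array's 75th percentile signal on a log axis, by group. Points are fetuses. Replicate 3 of hypoxia with vehicle and replicate 2 of hypoxia with ketamine are the highest fetuses of their groups in all 3 panels.

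The zinc carriers SLC39A3 (ZIP3), SLC39A7 (ZIP7) and SLC39A13 (ZIP13), which move zinc into the cytosol from outside the cell or from the secretory pathway, were among the steadiest members. Their levels ranged from 23.6% to 37.8%, from 40.5% to 58.4% and from 52.6% to 71.3%. None passed in any comparison. SLC39A13 had the smallest range of the 26 genes, 1.36-fold between the lowest and the highest fetus, which lay at the 4.03th percentile of all tested probes. SLC11A1 had the largest, 27.2-fold.

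The carriers under older names held 16 genes on 30 probes, of which 14 genes were tested. Hypoxia in vehicle fetuses gave 3 calls among them (21.4%, against 16.1% of all probes), SLC15A1 and SLC66A2 higher and SLC7A8 lower. In ketamine fetuses there were 2 (14.3%, against 8.67%), with SLC15A1 again higher and SLC7A8 lower. The medians over the 14 genes were 0.14 and -0.06. Averaged over both treatments, SLC15A1 and SLC7A8 passed (14.3%, against 20.3% of all probes). Ketamine against vehicle gave 2 calls in hypoxic fetuses (14.3%, against 6.07%), SLC66A2 and SLC7A1, both lower. In normoxic fetuses it gave 1 (7.14%, against 2.71%), SLC66A2, which was higher. The interaction passed for SLC66A2 and SLC7A1 (14.3%, against 3.15%).

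SLC15A1 (PEPT1), which takes up di- and tripeptides with protons, was higher after hypoxia in both treatments by its counted probe. Its levels were 2.33%, 2.06% and 1.13% in normoxia with vehicle and 1.26%, 1.16%, 2.17% and 0.691% in normoxia with ketamine. They were 9.55%, 2.61%, 3.01% and 8.21% in hypoxia with vehicle and 6.31%, 22%, 3.10% and 3.63% in hypoxia with ketamine. All 8 hypoxic fetuses exceeded all 7 normoxic ones, the lowest hypoxic level being 2.61% and the highest normoxic one 2.33%. This probe was well above background on 14 of the 15 arrays. The 0.691% in replicate 4 of normoxia with ketamine lay below that array's lowest such signal of 0.747%. The other SLC15A1 probe was well above background on 13 arrays, with 2 of the 4 from normoxia with ketamine. By that probe the vehicle groups overlapped, with 1.31% to 2.39% in normoxia and 1.53% to 13.8% in hypoxia, and the change did not pass. The ketamine groups did not overlap by it, with 0.536% to 1.15% in normoxia and 1.97% to 15.1% in hypoxia.

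The averaged SLC15A1 change was 1.94 ± 0.45, or 3.82-fold higher (limma adjusted p = 0.0489), with 1.98 within slide 1 and 2.05 within slide 2. It was smaller with normexp (0.87) and in the authors' deposited table of processed values (1.09), as was the change in ketamine fetuses (1.32 and 1.41), and all 4 passed. In ketamine fetuses it was 2.37 ± 0.61, or 5.16-fold (adjusted p = 0.276), with 2.88 within slide 1 and 1.85 within slide 2 (not passed). In vehicle fetuses it was 1.5 ± 0.66, or 2.83-fold (adjusted p = 0.284), with 1.08 within slide 1 (not passed) and 2.25 within slide 2 (not passed). The interaction was 0.86 ± 0.89 (adjusted p = 0.989). Without replicate 4 of hypoxia with vehicle and replicate 2 of hypoxia with ketamine, the averaged change was 1.51 and passed.

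The second SLC15A1 probe, which shares no bases with the first, gave 1.77 ± 0.51 for the average (adjusted p = 0.0833), 2.49 ± 0.69 in ketamine fetuses, which passed (adjusted p = 0.308), and 1.04 ± 0.75 in vehicle fetuses, which did not pass (adjusted p = 0.502). The vehicle call of the first probe was also lost without replicate 2 (1.62) or 3 (1.18) of normoxia with vehicle or replicate 1 (1.19) or 4 (1.26) of hypoxia with vehicle, with normexp (0.43), in the authors' deposited table (0.77) and with the median over both probes (1.27).

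SLC7A8 (LAT2), the light chain of a basolateral exchanger for neutral amino acids, was lower after hypoxia. Its levels by the second probe were 3.93%, 4.47% and 6.76% in normoxia with vehicle and 5.33%, 4.58%, 6.05% and 6.18% in normoxia with ketamine. They were 1.67%, 3.03%, 0.504% and 1.35% in hypoxia with vehicle and 0.968%, 1.57%, 3.08% and 4.91% in hypoxia with ketamine. All 4 hypoxic vehicle fetuses lay below every normoxic fetus, and 1 of the 4 hypoxic ketamine fetuses reached the normoxic range. This probe was well above background on 14 of the 15 arrays. The 0.504% in replicate 3 of hypoxia with vehicle, an array of slide 2, lay below that array's lowest such signal of 0.754%. That reading enters the fitted changes, so their size is uncertain.

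The log2 change of SLC7A8 was -1.85 ± 0.56 in vehicle fetuses, or 3.61-fold lower (limma adjusted p = 0.173), with -1.05 within slide 1 (not passed) and -2.88 within slide 2. In ketamine fetuses it was -1.33 ± 0.52, or 2.51-fold lower (adjusted p = 0.511), with -0.83 within slide 1 (not passed) and -1.82 within slide 2 (not passed). The averaged change was -1.59 ± 0.38 (adjusted p = 0.0527), and the first probe, which shares 53 bases, gave -1.50 ± 0.42. The ketamine call was lost without replicate 1 (-0.94) or 2 (-1.17) of hypoxia with ketamine, without replicate 4 of hypoxia with vehicle and replicate 2 of hypoxia with ketamine together (-1.17) and without the 3 arrays described for placental lactogen (-1.32), and none of the 3 passed with normexp (-0.70, -0.27 and -0.48).

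**Figure D5:**
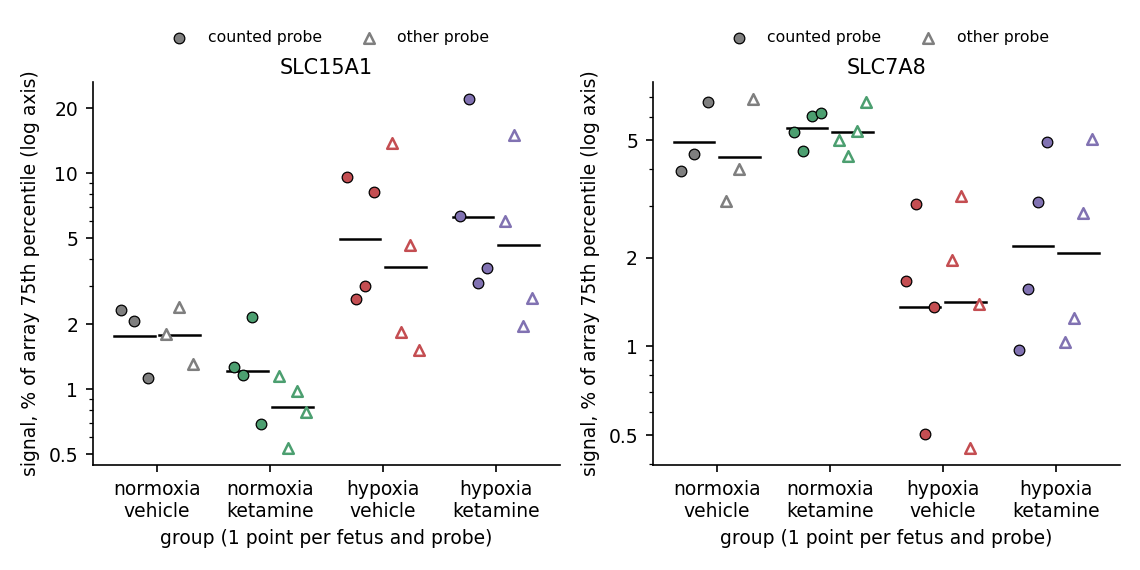
Level of SLC15A1 and SLC7A8 in each fetus by both probes of each gene, as a percentage of the array's 75th percentile signal on a log axis, by group. Points are fetuses and bars are geometric means. Filled circles are the counted probe, which is the first SLC15A1 probe and the second SLC7A8 probe, and open triangles the other. By the counted probes SLC15A1 is higher in all 8 hypoxic fetuses than in the 7 normoxic ones and SLC7A8 is lower in 7 of the 8. By the other probes this holds for 5 of the 8 and 6 of the 8.

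SLC66A2 (PQLC1) had a hypoxia effect that differed between treatments at the unadjusted threshold, but not after adjustment. Its levels were 15.3%, 14% and 18.5% in normoxia with vehicle and 23.9%, 24.2%, 23.1% and 18.4% in normoxia with ketamine. They were 22.7%, 26.6%, 25.4% and 22.9% in hypoxia with vehicle and 23.3%, 24.1%, 13.4% and 13.3% in hypoxia with ketamine. Hypoxic vehicle fetuses all lay above normoxic vehicle fetuses, and the hypoxic ketamine fetuses split into a high pair and a low pair.

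The interaction for SLC66A2 was -0.95 ± 0.29 (limma adjusted p = 0.989), with -1.19 within slide 1 and -0.60 within slide 2 (not passed). It rose by 0.62 ± 0.21 with hypoxia in vehicle fetuses (adjusted p = 0.206) and by 0.50 ± 0.21 with ketamine in normoxia (adjusted p = 0.9998), and fell by 0.45 ± 0.20 with ketamine in hypoxia (adjusted p = 0.804). Within slides 1 and 2 these were 0.76 and 0.38 (not passed), 0.72 and 0.16 (not passed), and -0.47 and -0.44 (neither passed). With normexp the ketamine changes did not pass (0.30 in normoxia and -0.19 in hypoxia), and the one in hypoxia did not pass in the deposited table (-0.35) or in a fit of its 2 groups alone (-0.45). The 2 ketamine calls were each lost on leaving out any of several arrays, at 0.41 to 0.48 in normoxia (replicates 1 and 2 of its vehicle group and 1, 2 and 3 of its ketamine group) and -0.43 to -0.31 in hypoxia (replicates 2 and 3 of its vehicle group and 3 and 4 of its ketamine group). The hypoxia call was lost without replicate 2 of normoxia with vehicle (0.53).

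SLC7A1 (CAT-1), the transporter of arginine and other cationic amino acids, was lower with ketamine in hypoxic fetuses by its counted probe. Its levels were 1.44%, 1.25% and 1.31% in normoxia with vehicle and 1.56%, 1.67%, 1.48% and 1.42% in normoxia with ketamine. They were 2.14%, 1.32%, 1.74% and 2.48% in hypoxia with vehicle and 1.41%, 1.62%, 1.28% and 0.529% in hypoxia with ketamine. The hypoxic groups overlapped, and replicate 4 of hypoxia with ketamine, the array with the highest limit of detection, was the lowest of all. Its 0.529% lay below that limit of 1.59%, so it is not a measured low level.

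The SLC7A1 change with ketamine in hypoxia was -0.74 ± 0.29 (limma adjusted p = 0.804), with -0.97 within slide 1 (not passed) and -0.52 within slide 2. It was -0.39 without replicate 4 of hypoxia with ketamine, and the call was also lost without replicate 1 (-0.68) or 4 (-0.61) of hypoxia with vehicle and in a fit of the 2 groups alone (-0.74). The interaction was -0.94 ± 0.43 (adjusted p = 0.989), and leaving out 1 array ended that call for 10 of the 15, as did slide as a block (-0.92). The other probe, which shares 59 bases with the counted one, gave -0.78 (adjusted p = 0.832) and -0.81 (adjusted p = 0.989) and did not pass, and with normexp the sign of both SLC7A1 changes turned (0.15 and 0.35).

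The other 10 tested carriers under older names did not pass in any comparison. The phosphate cotransporter SLC34A1 (NPT2a), which SLC9A3R1 anchors in the brush border, was at 712% to 1358% and had a log2 change of -0.21 ± 0.25 (adjusted p = 0.702) and -0.35 ± 0.23 (adjusted p = 0.751) with hypoxia. The lactate and short-chain fatty acid carrier SLC5A8 was steady at 79.2% to 109%. The insulin-responsive glucose carrier SLC2A4 (GLUT4) had a log2 change of 0.17 ± 0.24 and 0.10 ± 0.22. The glutamate transporter SLC1A1 and the urea transporter SLC14A2 were not tested, with no probe well above background on more than 2 arrays.

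Among 14 other genes of tubular transport, 2 were lower and none higher with hypoxia in vehicle fetuses, a share of 14.3% that is near the 16.1% of all probes. CLCN5, a chloride-proton exchanger of proximal tubule endosomes, changed by -0.43 ± 0.18 (limma adjusted p = 0.272), and TRPM7, a cation channel that admits magnesium, by -0.55 ± 0.17 (adjusted p = 0.174). Every hypoxic vehicle fetus lay below every normoxic vehicle fetus for both. In ketamine fetuses CLCN5 fell again, by 0.43 ± 0.17 (adjusted p = 0.511). The sodium pump subunit ATP1B1, the collecting duct sodium channel subunits SCNN1A, SCNN1B and SCNN1G, and the other 8 genes did not pass in any comparison, and none of the 14 passed for ketamine or for the interaction.

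The spread between fetuses was larger among the 26 genes than over the array, and largest in hypoxia with vehicle. The median SD on the log2 scale was 0.21 (vehicle) and 0.25 (ketamine) over the genes in normoxia and 0.38 and 0.26 in hypoxia, against 0.18, 0.21, 0.29 and 0.24 over all tested probes. The hypoxia comparisons in vehicle and in ketamine fetuses share no arrays, and their changes had the same sign for 16 of the 26 genes (61.5%), against 66.1% of all probes.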

How the data were processed

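Each array measured Cy3-labelled total RNA of the kidney cortex of 1 fetus, with 15 arrays in 4 groups taken from the labels. Per the file headers, the deposited scanner intensity was background subtracted and spatially detrended by Agilent Feature Extraction 10.1.1.1, with no scaling between arrays. The deposited table of processed values is on the log2 scale and, per the submitters' processing notes, was made with limma. Its background correction, filter and scaling are not stated in these sources. For 12 of its 15 columns the closest array was not their own but another of the same group, so the table served as an alternative.

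Processed intensities of non-outlier spots were averaged by probe and taken as log2 relative to each array's 75th percentile. The 12927 probes well above background on at least 3 arrays were fitted in limma 3.58.1 (R 4.3.3), with 1 mean per group, 11 residual and 2.4 prior degrees of freedom and two-sided tests, first tested on simulated data. The 6 comparisons were hypoxia against normoxia under each treatment and averaged over both, ketamine against vehicle under each oxygen condition, and the interaction. A gene was called at an unadjusted p of 0.05, the labels' threshold. Benjamini-Hochberg adjusted p-values cover all tested probes of a comparison.

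Genes were named from the array annotation, and older names were matched by hand. The genes named are the 5 markers SLC15A1, SLC4A4, SLC9A3, SLC25A20 and CFTR, every called or untested gene, and those whose probes disagree. Of the 26 members, 2 are not reported here by name, and counts and medians over the members include them. The members and lists were chosen with earlier results of these data known. Alternatives covered scaling, normexp (offset 50), filters on dim probes, slides, replicate numbers, the deposited table, probes and left-out arrays. Chromosomal positions of the probes were not used here.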

Additional observations from a re-analysis of the deposited data

Results flagged for a closer look

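Within groups of 4 fetuses, 8 of the 114 groups examined held 1 fetus separated from the other 3 by a gap above Dixon's 95% limit, where chance gives about 1 group in 20. The values are the gap as a share of the group's range, both taken on the log2 scale. In hypoxia with ketamine, SLC25A17 was at 34% of the array's 75th percentile signal in replicate 2 against 18.7% to 20.3% in the others (0.870), SLC25A11 at 49.5% in the same fetus against 47.4% to 47.6% (0.881), and SLC25A6 at 3180% in replicate 4 against 2249% to 2357% (0.865). In hypoxia with vehicle, SLC25A26 was at 22.7% in replicate 2 against 18.7% to 19.2% (0.879).

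In normoxia with ketamine, replicate 4 stood apart for SLC25A38 at 24.0% against 17.9% to 18.2% (0.950), for SLC66A2 at 18.4% against 23.1% to 24.2% (0.833) and for SLC1A2 at 0.855% against 1.47% to 1.5% (0.964). SLC9A3 was at 1.37% in replicate 3 against 1.78% to 1.85% (0.877).

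The interaction passed an unadjusted p of 0.05 in limma for SLC9A3 (-1.0, upstream probe), SLC66A2 (-0.95) and SLC7A1 (-0.94, counted probe). Of all probes 3.15% did so, and none of these genes passed after adjustment. The downstream SLC9A3 probe gave 0.38. With normexp the sign turned for SLC9A3 and SLC7A1. The SLC7A1 value includes a reading below its array's lowest signal called well above background.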

How the results depend on the processing

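SLC9A3R1 kept its direction and its call in the 2 hypoxia comparisons and their average under every alternative except within single slides. Counts of called members were as follows where they moved by more than 1.5 times. Hypoxia in vehicle fetuses, with 3 calls, gave 1 within slide 2, 5 without the 2 arrays least like the others (chosen after seeing the data) and 3 to 5 with 1 array left out. Hypoxia in ketamine fetuses, with 2 calls, gave 1 within slide 2, 4 without those 2 arrays and 2 to 3 with 1 array left out. The averaged comparison, with 3, gave 5 within slide 1 and 2 to 6 with 1 array left out, 6 of them without replicate 1 or 4 of hypoxia with vehicle. Ketamine in hypoxia, with 1 call, gave 0 with normexp, within slide 1, in the deposited table (22 genes, without SLC9A3 and CFTR) and with the median over probes, 2 without the 2 arrays and 1 to 2 with 1 array left out. Ketamine in normoxia, with 2, gave 1 with normexp, with a minimum of 8 arrays, within slide 1 and without the 3 arrays for which earlier results describe placental lactogen, 0 within slide 2 and 1 to 3 with 1 array left out. The interaction, with 1, gave 0 with normexp, within slide 1 and with the median over probes, 2 without the 2 arrays and 1 to 2 with 1 array left out.

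Among called changes the sign turned with normexp alone, for CFTR with ketamine in normoxia (-0.13), SLC9A3 with ketamine in hypoxia (0.10) and in the interaction (0.28), and SLC7A1 in the same comparisons (0.15 and 0.35). The cause was not tested. Normexp also moved the median of all probes, to -0.11, 0.09, 0.12, -0.08, 0.18 and 0.01 for hypoxia in vehicle, in ketamine, ketamine in hypoxia, in normoxia, interaction and average. Without the 3 arrays described for placental lactogen, calls ended for CFTR (0.62, ketamine in normoxia), SLC11A1 (0.92, average), SLC7A8 (-1.32, ketamine fetuses), SLC66A2 (0.39, ketamine in normoxia) and SLC7A1 (-1.05, interaction). Of 526 values of named genes under other settings, 437 kept their direction and side of the threshold, as did 585 of 645 with 1 array left out.

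Correlations between arrays cannot settle whether the replicate numbers pair the fetuses. Of 21 same-numbered pairs of arrays, 3 correlated above 0.1 (range -0.29 to 0.37). These 3 joined a vehicle and a ketamine array under the same oxygen condition (0.33 and 0.21 in normoxia, 0.37 in hypoxia). Differently numbered pairs of that kind reached 0.22 in normoxia and 0.29 in hypoxia, and others were negative. With a replicate block, 5 members were called for hypoxia in vehicle fetuses, with SLC25A4 and SLC2A5 added, and 2, 4, 1, 3 and 1 for hypoxia in ketamine fetuses, the average, ketamine in hypoxia, in normoxia and the interaction. Signals near background limit what a change can show, as does the number of fetuses. Such signals occurred for CFTR and SLC9A3, and on some arrays for SLC7A1, SLC15A1 and SLC7A8.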
